A study of Mus musculus with 12 samples.

Results

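The angiopoietin, vascular endothelial growth factor (VEGF) and apelin systems were followed in the mouse heart through 10 genes taken by name: the ligands Angpt1, Angpt2, Vegfa and Apln, the receptors Tek, Tie1, Kdr, Flt1 and Aplnr, and the endothelial junction gene Cdh5. All 10 were among the 12855 genes listed in every library. The study measured RNA in hearts of wild-type C57BL/6 mice in 3 groups of 4 animals and asked how a herbal decoction, Xijiao Dihuang (XJDHT), alters the heart in a model of sepsis. Control mice received saline in place of both agents, LPS mice received lipopolysaccharide at 10 mg/kg with saline as the second agent, and LPS+XJDHT mice received the same dose of lipopolysaccharide with XJDHT at 50 mg/kg per day. Treatment lasted 3 days in each group. Lipopolysaccharide is a bacterial wall component that sets off a septic inflammatory response. The sources used here do not give the dosing schedule, the sex or the age.

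Angiopoietin 1, made by cells around the vessel, activates the endothelial receptor TEK (also called TIE2) and keeps vessels quiet and tight, whereas angiopoietin 2, released by endothelial cells, can block that signal. VEGF-A acts through KDR, its main signalling receptor, while FLT1 binds VEGF-A tightly and, in its soluble form, acts as a trap. Apelin and its receptor APLNR act on blood vessels and on the force of the heartbeat, and VE-cadherin, the product of Cdh5, holds endothelial cells together.

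Expression is given in FPKM, fragments scaled to transcript length and library depth, so levels can be compared between genes per length. Library depth, inferred from the values and not counted, lay between 73759000 and 77812000 fragments, and the fragment numbers given below rest on it. Differences were tested with limma on log2(FPKM + 1) in 1 fit over 12 libraries, and Benjamini-Hochberg adjusted p-values are over all 11500 tested genes. All 10 genes passed the filter of at least 1 FPKM in 4 libraries, Angpt1 through 3 Control hearts and 1 LPS heart, and Aplnr through 4 Control hearts and 1 LPS heart. Adding 1 to each value understates the change of genes near or below 1 FPKM. Cardiomyocyte markers, which define the labelled tissue, summed to 3358 to 7680 FPKM in each library. RNA of 4 Y-linked genes summed to 0.205 FPKM in LPS+XJDHT replicate 2 and to between 20.4 and 61.9 FPKM in each of the other 11 libraries. Without that library the number of members called was the same in each comparison. Each limma p-value sets a difference of group means against the spread of these 12 hearts within their groups. In bulk tissue, fewer cells of a type and less RNA per cell cannot be told apart.

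In LPS hearts, 4 of the 10 genes fell against Control (Angpt1, Vegfa, Apln, Aplnr), 1 rose (Angpt2), and 5 did not pass the test (Tek, Tie1, Kdr, Flt1, Cdh5). The Angpt1 call was lost in 9 of 21 other settings, and then 3 genes fell. Among all tested genes, 26.6% rose and 12.1% fell in this comparison. The groups did not overlap for 4 members (Angpt2, Vegfa, Apln, Aplnr), while 37.5% of all tested genes showed no overlap. The median log2 difference was -0.35 over the members and 0.16 over all genes. All 3 ligands and the receptor that fell had lower means in LPS by between 2.53 and 7.46 times. Each of the 4 tyrosine kinase receptors, none of which passed, had a mean within 1.45 times of its Control mean.

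**Figure D1:**
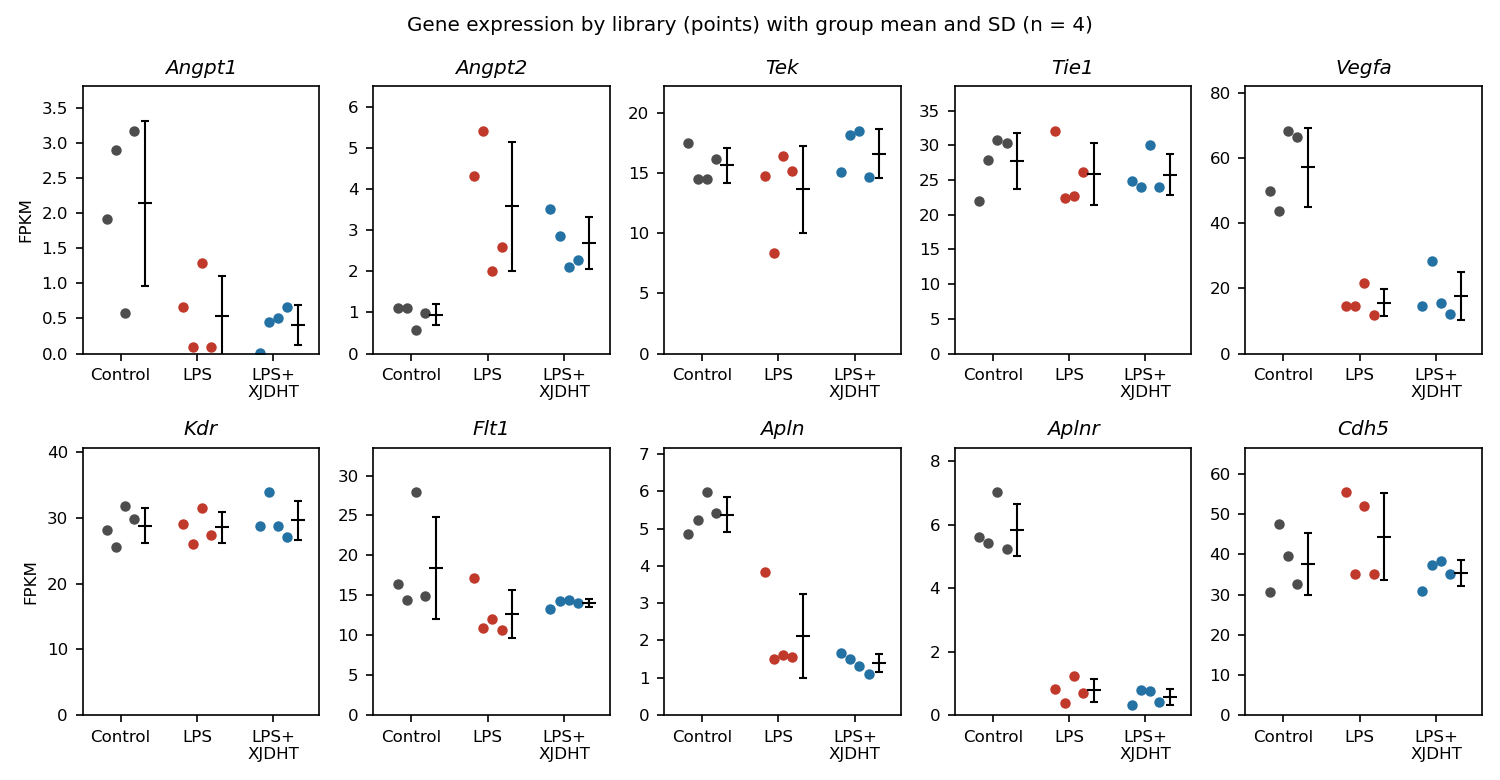
FPKM of the 10 genes (vertical axes, linear, from 0) in 12 hearts; points are libraries, and bars are the group mean with SD (n = 4), clipped at 0 for Angpt1 in LPS. Aplnr lay between 5.25 and 7.03 in Control and between 0.374 and 1.24 in LPS, whereas the Kdr groups overlapped.

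The 2 angiopoietins moved in opposite directions. Angpt1 (chr15:42424723-42676977, minus strand, GRCm38) was at 1.92, 2.90, 0.579 and 3.18 FPKM in Control hearts and at 0.670, 0.0918, 1.29 and 0.0982 FPKM in LPS hearts. Control replicate 3 was lower than 2 of the LPS hearts, so the groups overlapped. Angpt1 fell by 1.01 on the log2 scale in LPS (SE 0.33, limma adjusted p = 0.031). The levels were low: 192 to 1046 fragments supported the Control values, and LPS replicates 2 and 4 had 30 and 31. The Angpt1 call was kept in 12 of 21 other settings, over which its adjusted p ranged from 0.0056 to 0.098. It was lost with pseudocount 0.1 (adjusted p = 0.067), limma-voom on recovered fragments (0.098), a fit of the compared groups alone (0.056) or every transcript that both of these groups list (0.055), and on leaving out Control replicate 1 (adjusted p = 0.059), 2 (0.083) or 4 (0.086), or LPS replicate 2 (0.082) or 4 (0.081).

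Angpt2 (chr8:18690263-18741562, minus strand) was at 1.11, 1.103, 0.563 and 0.996 FPKM in Control hearts and at 4.32, 5.42, 1.99 and 2.59 FPKM in LPS. Every LPS heart was above every Control heart. Angpt2 rose by 1.18 on the log2 scale (SE 0.23, limma adjusted p = 0.0020), from a mean of 0.942 to one of 3.58 FPKM, and it passed in 21 of 21 other settings. In Control the destabilising ligand was thus the scarcer one per length, and in LPS it was the more abundant one.

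The ratio of Angpt2 to Angpt1 FPKM within each heart describes that shift without a test. It was 0.577, 0.380, 0.972 and 0.313 in Control and 6.45, 59.0, 1.54 and 26.4 in LPS. Angpt1 exceeded Angpt2 in each Control heart and was below it in each LPS heart. In LPS+XJDHT hearts the ratio was 368, 6.31, 4.12 and 3.45, and the highest value rests on 3 Angpt1 fragments in replicate 1. With 0.1 FPKM added to both genes the medians were 0.499, 9.66 and 4.48 in Control, LPS and LPS+XJDHT.

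**Figure D2:**
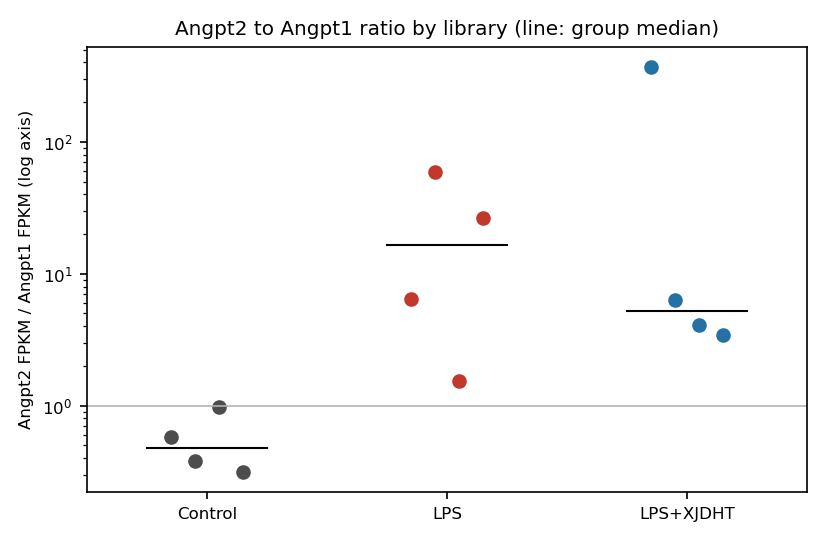
Ratio of Angpt2 to Angpt1 FPKM in each heart (log axis) by group, with the group median as a line; the grey line marks equal levels. The 4 Control hearts lie below 1 and the other 8 hearts above it.

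Neither receptor of the angiopoietin system passed the test. Tek (chr4:94739289-94874976, plus strand), which binds both angiopoietins, was at 17.5, 14.5, 14.5 and 16.2 FPKM in Control hearts and at 14.7, 8.36, 16.5 and 15.2 FPKM in LPS. Its log2 difference was -0.22 (95% interval -0.61 to 0.17, limma adjusted p = 0.36), and -0.41 with median-ratio scaling (limma adjusted p = 0.076). LPS replicate 2 was below each of the other 11 hearts. Tie1 (chr4:118471191-118490061, minus strand), a partner receptor of TEK with no angiopoietin ligand of high affinity, was at 22.0, 27.9, 30.8 and 30.3 FPKM in Control hearts and at 32.1, 22.5, 22.7 and 26.1 FPKM in LPS, with a log2 difference of -0.10 (95% interval -0.41 to 0.21, limma adjusted p = 0.61).

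With median-ratio scaling the Tie1 difference from Control was -0.29 in LPS (limma adjusted p = 0.087) and -0.33 in LPS+XJDHT (0.057). Behind the Tie1 total, its 3 listed transcripts differed sharply between hearts of the same group. Tie1-203, annotated with a coding sequence of 647 residues against 1134 for Tie1-201, supplied 55.8, 6.68, 59.8 and 13.3% of Tie1 FPKM in Control. Its share was 1.65, 1.37, 46.7 and 3.08% in LPS and 0.964, 2.53, 3.70 and 56.2% in LPS+XJDHT. The share was thus between 46.7 and 59.8% in 4 hearts spread over 3 groups and at most 13.3% in the other 8. As a transcript, Tie1-203 did not pass in LPS against Control (log2 difference -1.62, SE 0.93, limma adjusted p = 0.23 over 18635 transcripts).

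Vegfa (chr17:46016993-46032369, minus strand) was the highest of the 10 genes in Control. It was at 49.9, 43.6, 68.4 and 66.5 FPKM there and at 14.6, 14.5, 21.6 and 11.9 FPKM in LPS. The highest LPS heart was below the lowest Control heart. Vegfa fell by 1.81 on the log2 scale (SE 0.25, limma adjusted p = 0.00022), from 57.1 ± 12.2 to 15.6 ± 4.13 FPKM (mean ± SD, n = 4), and passed in 22 of 22 other settings. Between 2247 and 12830 fragments supported each value.

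The VEGF-A gene makes proteins that differ in how they bind heparan sulphate in the matrix, set by which exons lie between its exon 5 and its last one. The 3 listed coding transcripts are shown where they part, read from GENCODE M21 transcripts; lower case is the shared end of exon 5 (first base 46024094, last base 46024065 on chromosome 17, minus strand) and capitals are the bases that follow.
Vegfa-201: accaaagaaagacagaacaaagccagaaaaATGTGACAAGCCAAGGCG
Vegfa-202: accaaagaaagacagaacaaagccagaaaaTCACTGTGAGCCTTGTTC
Vegfa-207: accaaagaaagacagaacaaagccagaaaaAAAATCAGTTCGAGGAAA
Vegfa-201, with 6 exons, runs straight from exon 5 into the last exon and so lacks the heparin-binding exons; Vegfa-202 has 7 exons and Vegfa-207 has 8.

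All of these forms fell together in LPS. Vegfa-201, the most abundant, went from 32.6 ± 5.08 to 9.13 ± 1.45 FPKM (log2 difference -1.73, SE 0.21, limma adjusted p = 0.00018). Vegfa-207 went from 3.68 ± 1.15 to 1.02 ± 0.314 FPKM (log2 difference -1.19, limma adjusted p = 0.0020). Vegfa-202 went from 9.12 ± 3.23 to 3.41 ± 1.77 FPKM (log2 difference -1.22, limma adjusted p = 0.014), with overlap through LPS replicate 3 at 6.05 and Control replicate 2 at 5.49 FPKM. The fourth listed transcript, the non-coding Vegfa-208, which retains an intron in its 550 bases, went from 11.7 ± 4.58 to 2.09 ± 1.76 FPKM (log2 difference -2.12, limma adjusted p = 0.0043). With coding transcripts alone, a choice made after seeing the data, the log2 difference of Vegfa was -1.67 (limma adjusted p = 0.00018). Of the FPKM of the 3 listed coding transcripts, Vegfa-201 made up 67.8 to 77.0% in Control hearts. Its share was 57.3 to 73.6% in LPS and 66.5 to 72.0% in LPS+XJDHT, and these ranges overlap. GENCODE M21 annotates 13 Vegfa transcripts, of which 4 were listed, so these are not shares of all coding Vegfa RNA. Across the 10 genes, 17 transcripts were listed and tested, of which 1 rose and 6 fell in LPS. Among all transcripts tested, 17.3% rose and 8.26% fell. The 6 include all 4 listed Vegfa transcripts, so they do not count separate genes. Angpt1-201, the only listed Angpt1 transcript, did not pass in the transcript fit (limma adjusted p = 0.05002).

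Promoters, taken as 250 bases before to 50 after a start site, were found in the RefSeq table (GRCm38.p6) for Tek, Tie1, Kdr, Flt1, Vegfa and Apln, that is 6 of the 10 genes. The promoters of the 2 genes among these that fell are shown. Capitals mark the GC box GGGCGG, a sequence bound by SP1-family factors, searched on both strands.
Vegfa promoter, chr17:46032328-46032627, minus strand: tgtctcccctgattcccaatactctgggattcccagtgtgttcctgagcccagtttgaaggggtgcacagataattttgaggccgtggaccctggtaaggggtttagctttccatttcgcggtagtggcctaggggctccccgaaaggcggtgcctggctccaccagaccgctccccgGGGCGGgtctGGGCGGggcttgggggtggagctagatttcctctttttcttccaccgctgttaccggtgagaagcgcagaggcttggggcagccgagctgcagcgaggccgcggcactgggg
Apln promoter, chrX:48034804-48035103, minus strand: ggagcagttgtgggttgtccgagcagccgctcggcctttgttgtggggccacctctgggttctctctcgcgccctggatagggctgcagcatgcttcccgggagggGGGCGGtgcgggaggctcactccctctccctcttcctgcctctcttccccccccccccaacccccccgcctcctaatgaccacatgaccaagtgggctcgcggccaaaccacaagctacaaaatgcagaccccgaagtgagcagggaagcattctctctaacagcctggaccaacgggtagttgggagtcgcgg
Vegfa holds 2 GC boxes (first bases at -72 and -62 from the start site) and Apln holds 1 (at -144), and 35.7% of all 32851 promoters of this length hold at least 1. Neither window holds ACGTG, the core of the site of hypoxia-inducible factors, which 19.6% of promoters hold. TATAAA (13.6% of promoters), the ETS core CCGGAA (14.9%), the forkhead motif TGTTTAC (3.65%) and a spaced NF-kB motif (20.7%) were not in these windows either. The table gives Vegfa a further start site inside the gene, and the window around that one holds ACGTG once. No searched motif overlapped another in them. The GC content was 62.0% for Vegfa and 64.0% for Apln, against a median of 52.7%. A match, or its absence, is a description of these letters alone.

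Kdr (chr5:75932827-75978458, minus strand), which encodes VEGFR2, had the closest groups of the 10 genes. It was at 28.2, 25.6, 31.8 and 29.8 FPKM in Control hearts and at 29.1, 26.1, 31.6 and 27.4 FPKM in LPS. The log2 difference was -0.01 with a 95% interval of -0.23 to 0.20 (limma adjusted p = 0.93). Dividing each library by its median ratio to the mean library moved the median of all genes from 0.16 to 0.01, a shift of -0.15, and the Kdr difference then stood at -0.21 (limma adjusted p = 0.10).

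Flt1 (chr5:147561604-147726011, minus strand) was at 16.4, 14.3, 27.9 and 14.9 FPKM in Control hearts and at 17.1, 10.9, 12.1 and 10.6 FPKM in LPS. Control replicate 3 stood above the rest and LPS replicate 1 lay within the Control range. The log2 difference was -0.48 (95% interval -0.91 to -0.04), and it did not pass after adjustment (limma adjusted p = 0.078). It passed with median-ratio scaling (adjusted p = 0.018) and without LPS replicate 1 (adjusted p = 0.029).

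Flt1 RNA comes as a full-length receptor and as a shorter form that reads on past exon 13 into the next intron and stops there, the kind of transcript that encodes the soluble trap. The 2 listed transcripts are shown where they part (GENCODE M21, GRCm38, chromosome 5, minus strand): lower case is the shared end of exon 13, from 147639254 to 147639225, and capitals are the next 60 bases of each transcript, which start at 147634523 in Flt1-202 and at 147639224 in Flt1-203.
Flt1-202: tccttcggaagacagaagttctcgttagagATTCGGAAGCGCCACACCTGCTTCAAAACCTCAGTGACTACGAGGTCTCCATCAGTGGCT
Flt1-203: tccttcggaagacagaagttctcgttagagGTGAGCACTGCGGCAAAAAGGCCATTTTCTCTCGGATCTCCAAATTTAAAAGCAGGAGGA
Flt1-202 encodes 1333 residues over 30 exons, and Flt1-203 encodes 688 residues over 13 exons.

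Of 6 annotated Flt1 transcripts only these 2 were listed, and the short form supplied most of their summed FPKM in every heart. Its share was 66.7, 80.5, 57.2 and 86.1% in Control and 87.3, 88.7, 72.6 and 90.005% in LPS. The mean was 12.03 percentage points higher in LPS, but the groups overlapped and the difference did not pass (two-sided exact permutation test, p = 0.17, adjusted over 2 comparisons 0.34, smallest possible p = 0.029). Without Control replicate 3 the difference was 6.88 points (exact p = 0.34). Flt1-202 was at 5.48, 2.79, 11.95 and 2.08 FPKM in Control hearts and at 2.18, 1.23, 3.30 and 1.06 FPKM in LPS (log2 difference -0.99, SE 0.40, limma adjusted p = 0.096). Flt1-203 differed less (log2 difference -0.25, SE 0.16, limma adjusted p = 0.29). Control replicates 1 and 3 and LPS replicate 3, the hearts of their groups with most Flt1-202, were also those with most Tie1-203, whereas LPS+XJDHT replicate 4, the fourth such heart, had 1.60 FPKM of Flt1-202 in a group range of 1.40 to 2.26. Whether the assignment of fragments to overlapping transcripts plays a part was not tested.

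**Figure D3:**
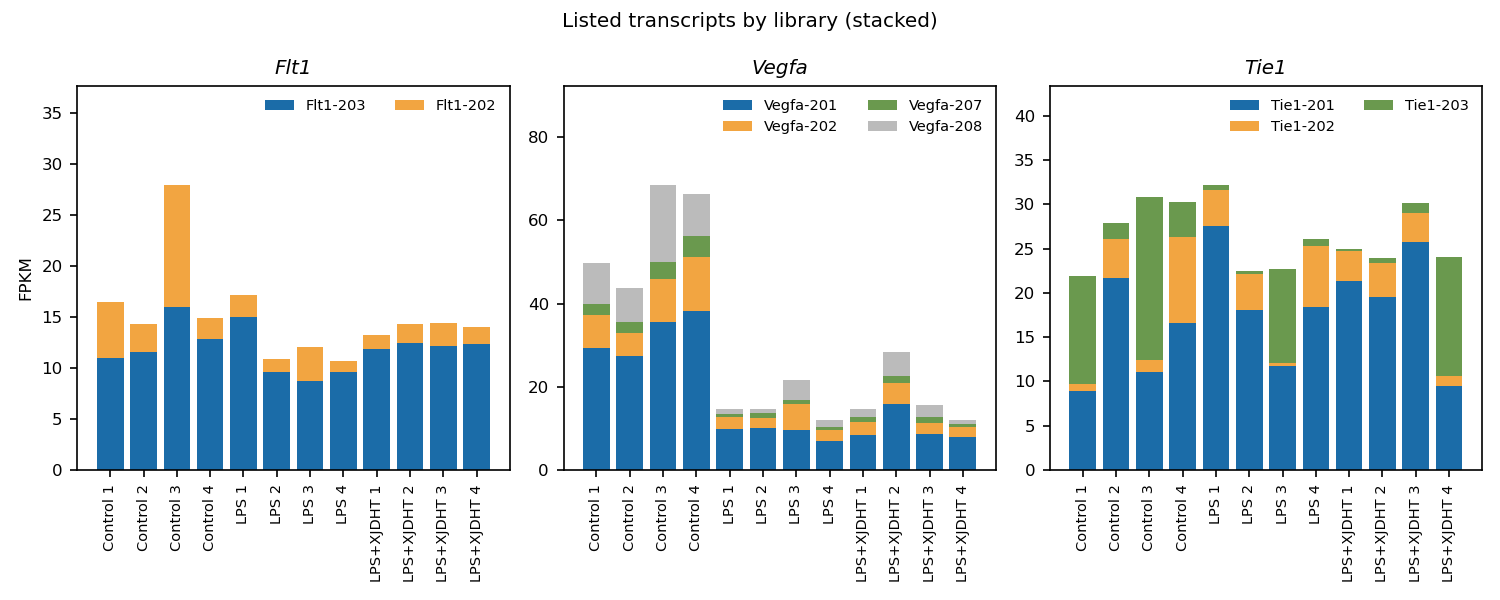
FPKM of the listed transcripts of Flt1, Vegfa and Tie1, stacked, for each of 12 hearts. Vegfa columns are lower in the 8 LPS and LPS+XJDHT hearts than in the 4 Control hearts, and Tie1-203 is large in Control 1, Control 3, LPS 3 and LPS+XJDHT 4.

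Ligand and receptor of the apelin system fell together. Apln (chrX:48025146-48034853, minus strand) was at 4.85, 5.23, 5.98 and 5.41 FPKM in Control hearts and at 3.83, 1.503, 1.62 and 1.54 FPKM in LPS. LPS replicate 1 was more than 2 FPKM above the other LPS hearts and still below each Control heart. Apln fell by 1.09 on the log2 scale (SE 0.20, limma adjusted p = 0.0012), and passed in 21 of 21 other settings.

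Aplnr (chr2:85136225-85139923, plus strand; its listed transcript is a single exon) had the largest log2 difference of the 10 genes. It was at 5.61, 5.43, 7.03 and 5.25 FPKM in Control hearts and at 0.807, 0.374, 1.24 and 0.708 FPKM in LPS. The LPS hearts lay 4 FPKM or more below the lowest Control heart. Aplnr fell by 1.95 on the log2 scale (SE 0.17, limma adjusted p = 8.1e-06), the Control mean being 7.46 times the LPS mean. The count of fragments went from between 1500 and 2022 to between 106 and 354.

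Cdh5 (chr8:104101625-104144511, plus strand) did not pass. It was at 30.6, 47.6, 39.6 and 32.6 FPKM in Control hearts and at 55.5, 35.2, 51.9 and 35.1 FPKM in LPS, where 2 hearts were high and 2 within the Control range. The log2 difference was 0.23 (95% interval -0.16 to 0.62, limma adjusted p = 0.35), and 0.03 with median-ratio scaling.

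The order of levels in Control ran from Vegfa (57.1 ± 12.2 FPKM) through Cdh5 (37.6 ± 7.72), Kdr (28.8 ± 2.65), Tie1 (27.7 ± 4.06), Flt1 (18.4 ± 6.40), Tek (15.7 ± 1.46), Aplnr (5.83 ± 0.812), Apln (5.37 ± 0.471) and Angpt1 (2.14 ± 1.18) to Angpt2 (0.942 ± 0.258). Neighbours in this order overlapped except at 2 steps, from Tek to Aplnr and from Apln to Angpt1. In LPS the order began with Cdh5 (44.4 ± 10.8 FPKM), Kdr (28.6 ± 2.36) and Tie1 (25.8 ± 4.51). Vegfa (15.6 ± 4.13) stood beside Tek (13.7 ± 3.62) and Flt1 (12.7 ± 3.04), with overlapping values. Angpt2 (3.58 ± 1.57) had moved above Apln (2.12 ± 1.14), Aplnr (0.781 ± 0.355) and Angpt1 (0.538 ± 0.571), although its range overlapped that of Apln. In LPS+XJDHT the order was Cdh5 (35.4 ± 3.31 FPKM), Kdr (29.7 ± 2.95), Tie1 (25.8 ± 2.92), Vegfa (17.6 ± 7.27), Tek (16.6 ± 2.003), Flt1 (14.001 ± 0.521), Angpt2 (2.68 ± 0.640), Apln (1.40 ± 0.240), Aplnr (0.562 ± 0.243) and Angpt1 (0.407 ± 0.279). There Apln lay between Angpt2 and Aplnr without overlap with either.

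Adding XJDHT to lipopolysaccharide gave no call among the 10 genes. None passed in LPS+XJDHT against LPS, and 0.113% of all tested genes did, 13 in number. No member had groups without overlap, against 2.82% of all genes, and 552 genes had an unadjusted p under 0.05. None of the 10 members was among these at the unadjusted level: their smallest unadjusted p was 0.12, for Tek. The median log2 difference was -0.04 over the members and 0.03 over all genes. A missed threshold does not show equal levels, and the intervals give what this number of hearts allows. They are on the log2(FPKM + 1) scale. For Angpt1 and Aplnr, with means below 1 FPKM in LPS and in LPS+XJDHT, they are too narrow to read as limits on the fold change. To a lesser degree the added 1 also narrows those of Apln (means of 2.12 and 1.40 FPKM) and Angpt2 (3.58 and 2.68 FPKM).

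In LPS+XJDHT hearts Angpt1 was at 0.00955, 0.452, 0.509 and 0.658 FPKM, a log2 difference from LPS of -0.08 (95% interval -0.80 to 0.64). Angpt2 was at 3.51, 2.85, 2.096 and 2.27 FPKM, with a difference of -0.27 (-0.77 to 0.24). Both lay within the range of the LPS hearts, except that Angpt1 in replicate 1 had only 3 fragments. Vegfa was at 14.5, 28.3, 15.5 and 12.1 FPKM, with a difference of 0.12 (-0.43 to 0.67). Its highest value, in the heart with almost no Y-linked RNA, was above each LPS heart and below each Control heart.

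Apln was at 1.66, 1.51, 1.32 and 1.102 FPKM in LPS+XJDHT hearts, a log2 difference from LPS of -0.33 (95% interval -0.76 to 0.11). Aplnr was at 0.304, 0.794, 0.744 and 0.407 FPKM, with a difference of -0.18 (-0.55 to 0.19). Both means were farther from Control than those of the LPS hearts, within the spread. The intervals for Tek (-0.09 to 0.69), Tie1 (-0.30 to 0.31), Kdr (-0.16 to 0.27), Flt1 (-0.28 to 0.59) and Cdh5 (-0.68 to 0.10) each included 0. Tek was at 15.1, 18.2, 18.5 and 14.7 FPKM and Cdh5 at 30.8, 37.4, 38.3 and 35.2 FPKM in these hearts. Kdr was at 28.7, 34.0, 28.8 and 27.2 FPKM, Flt1 at 13.3, 14.3, 14.4 and 14.003 FPKM, and Tie1 at 24.9, 24.0, 30.1 and 24.1 FPKM. The Flt1 values were the least spread of the 3, and they lay inside the range of the LPS hearts. The share of the short Flt1 form was 89.4, 87.4, 84.4 and 88.6%, 2.79 points from the LPS mean (two-sided exact permutation test, p = 0.80). None of the 17 transcripts passed, where 0.0966% of all transcripts did.

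**Figure D4:**
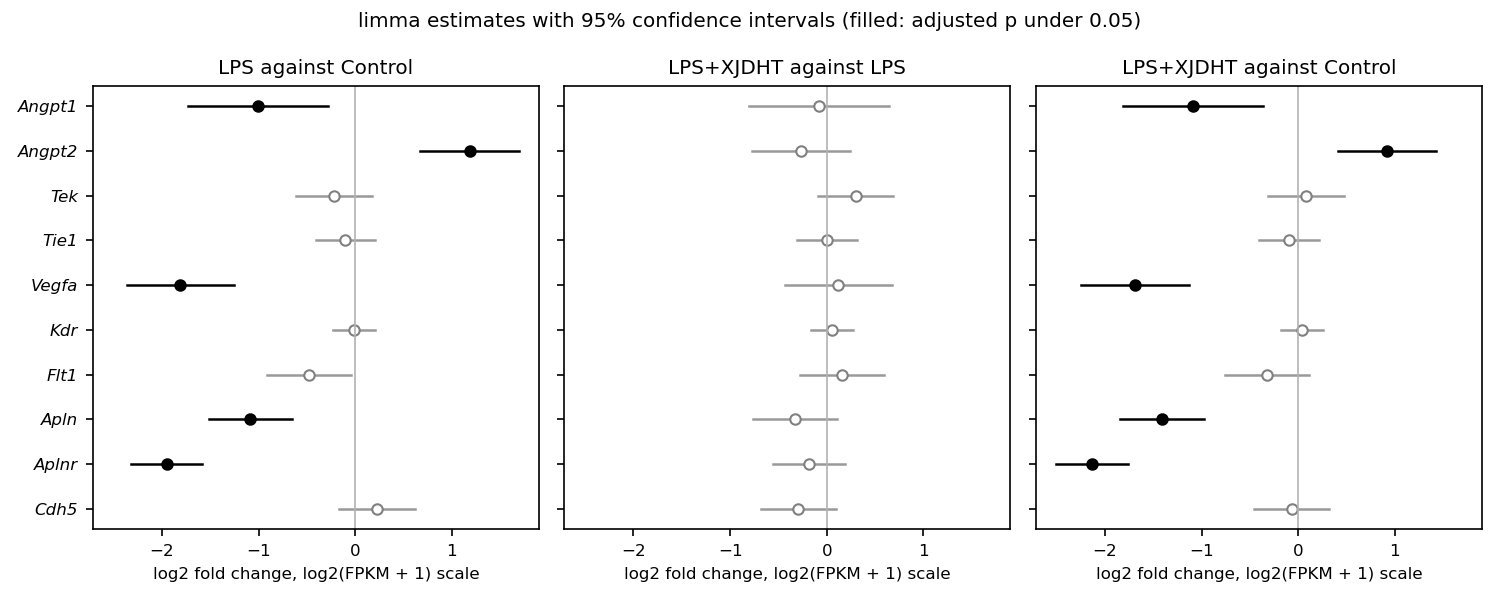
limma log2 differences (horizontal axis, log2(FPKM + 1) scale) with 95% intervals for the 10 genes in 3 comparisons; filled points passed the test. Angpt1, Vegfa, Apln and Aplnr lie below 0 and Angpt2 above it in both comparisons with Control, and all 10 intervals include 0 in LPS+XJDHT against LPS.

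Set against Control, the LPS+XJDHT hearts gave calls for the same 5 genes. This comparison shares the Control hearts with LPS against Control, so the 2 are not independent. Here 1 of the 10 rose and 4 fell, where 28.5% of all genes rose and 10.7% fell. The groups did not overlap for 4 members, against 42.1% of all genes. The limma log2 differences were -1.09 for Angpt1 (adjusted p = 0.022), 0.92 for Angpt2 (0.0088), -1.69 for Vegfa (0.00036), -1.41 for Apln (0.00023) and -2.13 for Aplnr (4.5e-06). The Angpt1 call was lost with pseudocount 0.1 (adjusted p = 0.053), with limma-voom (0.069), without LPS+XJDHT replicate 1 (adjusted p = 0.064) and without Control replicate 2 (0.062) or 4 (0.063). Of the 17 transcripts 1 rose and 7 fell, where 18.6% of all transcripts rose and 7.36% fell. The 7 again include all 4 listed Vegfa transcripts.

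Among the other VEGF ligands and receptors, a list of 7 genes, 2 rose and 2 fell in LPS, where 26.6% of all tested genes rose and 12.1% fell. The median log2 difference of the list was -0.08, against 0.16 over all genes. Pgf, placental growth factor, which binds FLT1 and not KDR, was at 4.99, 4.83, 4.95 and 5.32 FPKM in Control hearts and at 43.3, 48.7, 29.6 and 24.7 FPKM in LPS. The groups were far apart, and Pgf rose by 2.59 on the log2 scale (SE 0.22, limma adjusted p = 7.4e-06). Vegfb, a second FLT1 ligand, was at 96.6, 90.6, 105.7 and 107.3 FPKM in Control hearts and at 59.1, 61.1, 67.8 and 56.3 FPKM in LPS. It fell by 0.70 (SE 0.08, limma adjusted p = 5.7e-05). Among the 3 ligands of FLT1, Vegfa and Vegfb therefore fell and Pgf rose.

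Nrp1, a co-receptor for VEGF-A, went from 3.90 ± 0.479 to 2.21 ± 0.859 FPKM and fell by 0.65 (limma adjusted p = 0.028). That call was lost without Control replicate 1 (adjusted p = 0.069) or 4 (0.064). Vegfd, a ligand best known from lymphatic vessels, went from 0.689 ± 0.319 to 1.80 ± 0.858 FPKM (log2 difference 0.68, limma adjusted p = 0.043). Its groups overlapped, and the Vegfd call was lost in 14 other settings (adjusted p up to 0.12), among them leaving out Control replicate 1, 3 or 4, LPS replicate 1, 3 or 4, or LPS+XJDHT replicate 1, 2 or 4. Vegfc, Flt4 and Nrp2 did not pass.

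Of 13 tested genes of downstream signalling, 3 rose and 1 fell, with a median log2 difference of 0.08. Over all tested genes 26.6% rose and 12.1% fell, with a median of 0.16, so neither count was above the background share. Hey1, a target of Notch signalling in endothelium, was at 5.60, 4.70, 5.11 and 5.40 FPKM in Control hearts and at 0, 0.554, 0.927 and 0.568 FPKM in LPS. It fell by 2.07 (SE 0.19, limma adjusted p = 1.3e-05). Since every LPS heart was below 1 FPKM, Hey1 passed the filter only through hearts of the other groups. The added 1 understates its change, and the log2 difference ran from -4.93 to -1.89 over other settings. Dll4, a Notch ligand of tip cells, had a log2 difference of 0.51 (limma adjusted p = 0.042), a call lost in 13 other settings (adjusted p up to 0.14), among them leaving out any Control heart, LPS replicate 1, 2 or 4, or LPS+XJDHT replicate 1 or 4. Rac1, a small GTPase of cell shape and junctions, was at 13.0, 36.1, 36.0 and 38.5 FPKM in Control hearts and between 63.1 and 88.8 FPKM in LPS hearts (log2 difference 1.45, limma adjusted p = 0.0021). Src, a kinase downstream of KDR, went from 0.976 ± 0.272 to 2.49 ± 0.447 FPKM (log2 difference 0.82, limma adjusted p = 0.00072).

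Of 14 transcription factors known to act on these genes, 3 rose and none fell, and the median log2 difference was -0.08. The share that rose was below the 26.6% of all tested genes, of which 12.1% fell. Hif1a, the oxygen-regulated activator of Vegfa, was at 12.5, 15.04, 13.5 and 15.4 FPKM in Control hearts and at 81.5, 57.3, 37.4 and 42.6 FPKM in LPS. It rose by 1.82 (SE 0.20, limma adjusted p = 4.2e-05) in the hearts in which Vegfa RNA fell. HIF-1 activity is set mainly at the level of protein, which was not measured. Fli1, an ETS factor of endothelium and blood cells, rose by 0.51 (limma adjusted p = 0.018), a call lost with median-ratio scaling (adjusted p = 0.074) and without LPS replicate 1 (0.0502) or 4 (0.053). Hhex had a log2 difference of 0.88 (limma adjusted p = 0.041), and its call was lost in 12 other settings (adjusted p up to 0.12), among them leaving out Control replicate 1, 3 or 4, LPS replicate 1 or 2, or LPS+XJDHT replicate 1, 3 or 4.

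Of 11 tested genes listed as endothelial junction partners, 2 rose and none fell, with a median of 0.16. Both the share that rose, against 26.6% of all tested genes, and the median, against 0.16, were no higher than the background, and 12.1% of all genes fell. Cldn5, the tight junction claudin of endothelium, went from 11.2 ± 1.06 to 25.9 ± 10.0 FPKM (log2 difference 1.08, limma adjusted p = 0.0027). Ctnna1, alpha-catenin, went from 108.3 ± 10.2 to 145.7 ± 9.54 FPKM (log2 difference 0.43, limma adjusted p = 0.0051), a call lost with median-ratio scaling (adjusted p = 0.081). In LPS+XJDHT against LPS no gene of these 4 lists passed.

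**Figure D5:**
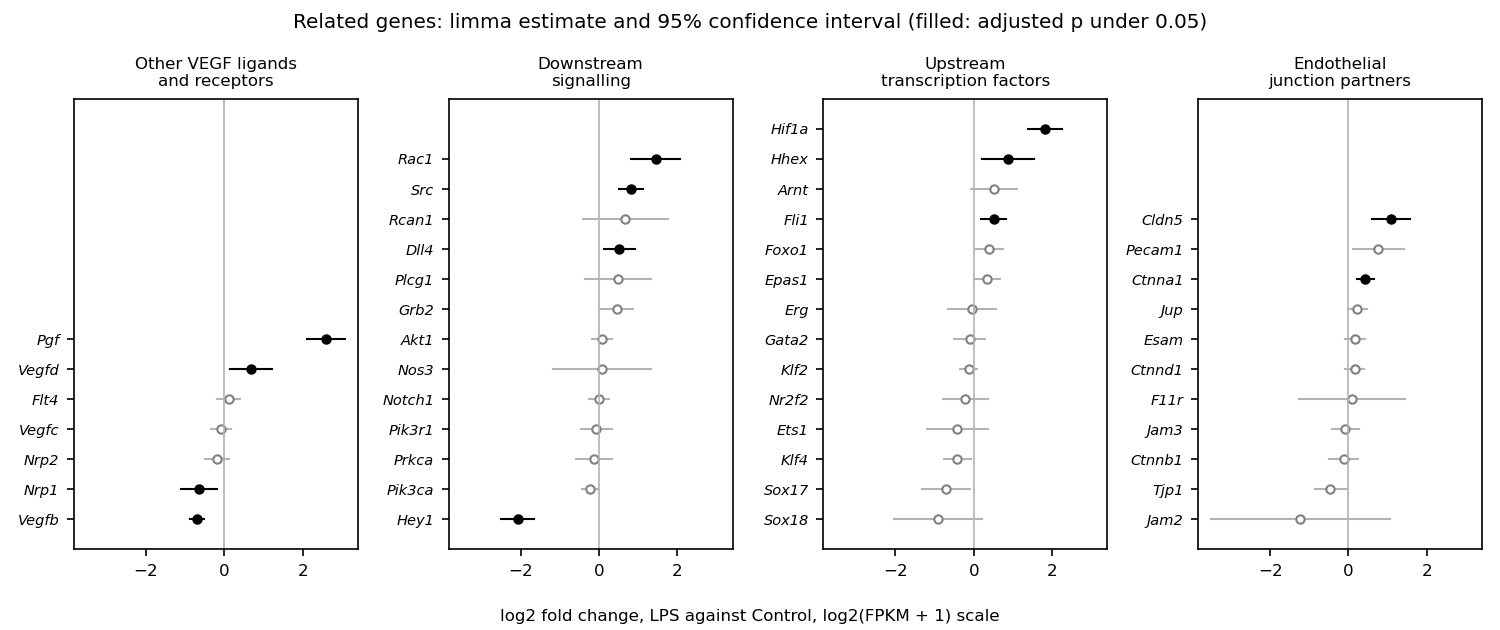
limma log2 differences with 95% intervals, LPS against Control, for the tested genes of 4 lists around the 10 members; filled points passed the test. Pgf, Hif1a and Rac1 lie farthest to the right and Hey1 farthest to the left among those that passed.

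Marker genes of the cells that make or receive these signals were read in the same fit, in which 26.6% of all tested genes rose and 12.1% fell. Of 15 endothelial markers, none of them a member, 5 rose and none fell in LPS (Ecscr, Cldn5, Mmrn2, Fabp4 and Clec14a), and their summed FPKM was 713 to 832 in Control, 916 to 1258 in LPS and 1002 to 1204 in LPS+XJDHT. Most of that rise was Fabp4, a fatty acid carrier, with means of 471, 734 and 733 FPKM in the 3 groups. Without it the other 14 markers summed to 264 to 306, 321 to 404 and 350 to 415 FPKM. The log2 differences of Sox17, Emcn, Cav1 and Erg were below 0 in LPS and did not pass. Of 8 pericyte markers 2 fell (Rgs5, Abcc9) and 1 rose (Mcam), and their sum was 190 to 223, 117 to 169 and 115 to 146 FPKM in the 3 groups. The lower sum was carried by Rgs5, with means of 147, 72.1 and 64.7 FPKM. Without it the other 7 markers summed to 43.4 to 73.2 FPKM in Control, 58.6 to 88.4 in LPS and 55.4 to 78.2 in LPS+XJDHT. The groups overlapped and the treated means were higher. Those higher means were in turn carried by Mcam, at means of 16.4, 41.0 and 35.9 FPKM in the 3 groups. Abcc9 went the other way, with means of 27.8, 14.5 and 16.4 FPKM. In LPS the log2 differences of Cspg4, Kcnj8 and Notch3 were below 0, those of Pdgfrb and Higd1b were above 0, and none of these passed. Of 6 tested cardiomyocyte markers 2 fell (Myh6, Tnni3), and the list's sum was 6730 to 7680 FPKM in Control, 3806 to 5280 in LPS and 3358 to 4841 in LPS+XJDHT. Without Myh6 it was 2384 to 3292, 1804 to 3291 and 1769 to 2541 FPKM, with overlapping groups. In LPS the log2 differences of Tnnt2 (-0.06), Actn2 (0.02), Ryr2 (-0.06) and Pln (-0.45) did not pass. Ttn was listed but missed the filter. Its means were 0.329 FPKM in Control, 2.66 in LPS and 0.388 in LPS+XJDHT, and its groups overlapped. Pericytes and cardiomyocytes are known sources of angiopoietin 1 and VEGF-A, but whether they play a part in the Angpt1 and Vegfa differences was not tested.

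Of 4 tested neutrophil markers 4 rose, with sums of 1.15 to 2.68 FPKM in Control and 76.5 to 114 in LPS. Ngp and Retnlg, at Control means of 0.0782 and 0.106 FPKM, passed the filter only through treated hearts. The Control mean of S100a8, 0.517 FPKM, was below the filter level too. Csf3r was listed but missed the filter, and its groups overlapped (means of 0.115 in Control and 0.640 in LPS). The filter thus partly set this count, which is given as a description. Of 5 monocyte and macrophage markers 3 rose, with sums of 25.7 to 34.5 and 46.0 to 69.5 FPKM. Platelet markers, of which 1 of 2 tested rose (Pf4), summed to 17.2 to 29.5 FPKM in Control, 45.5 to 58.0 in LPS and 27.5 to 38.7 in LPS+XJDHT, most of it Pf4. Fibroblast markers rose in 3 of 6 cases, smooth muscle markers fell in 1 of 4, and lymphatic markers rose in 1 of 4 tested. No listed marker was at 0 in all libraries of a group. The part of these cell types in the results was not tested.

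Genes whose FPKM followed each called member most closely over the 12 hearts were named by Pearson correlation of log2(FPKM + 1), as a description, since all 12 values share the contrast between Control and treated hearts. For Angpt1 they were Etfb (r = 0.92), Pts (0.89) and Suds3 (0.87), and for Angpt2 they were Psmg4 (0.98), Srxn1 (0.98) and Ppa1 (0.98). For Vegfa they were Mavs (0.98), Ppp1r3c (0.98) and Plpp7 (0.98). For Apln they were Aqp1 (0.95), Gid4 (0.95) and Sparcl1 (0.95), and for Aplnr they were Fkbp4 (0.98), Tesc (0.98) and Ccng1 (0.98). Within groups, after removing each group's mean, the r of the first-named genes was 0.94 for Etfb, 0.92 for Psmg4, 0.87 for Mavs, 0.66 for Aqp1 and 0.60 for Fkbp4.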

How the data were processed

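RNA from 12 mouse hearts was depleted of ribosomal RNA and sequenced, per the labels' protocols. The deposited files hold FPKM per transcript. The unit was read from the values, and the sources used here name no aligner or quantifier. The build mm10 and the tool limma are named in the submitters' processing notes. Control and LPS files list 36293 transcripts each, LPS+XJDHT files 35802, and 33137 are in all 12 files.

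Transcripts were matched to genes by ID with GENCODE M21 (GRCm38, the same assembly as mm10), and FPKM were summed per gene over 24712 annotated transcripts listed in every file. Multiplied by length, 98.7 to 99.1% of the low values tested were whole multiples of 1 constant per library (tolerance 0.1), which gave fragment counts. Genes that reached 1 FPKM in 4 or more libraries were tested with limma 3.58.1 (R 4.3.3; moderated test with intensity trend, 3 group means, 2-sided) on log2(FPKM + 1), with Benjamini-Hochberg adjustment and a threshold of 0.05. Single transcripts were fitted likewise. The script was tested on simulated data. Marker and pathway lists were named by gene; genes past the threshold in LPS against Control or LPS+XJDHT against LPS with a mean of at least 1 FPKM were named, at most 6 a list, and the 3 most correlated genes (mean of at least 5 FPKM) per called member. A further pathway list is not reported here. The members and lists were chosen with earlier results of these data known. Alternatives were other pseudocounts, filters, scaling, weights, transcript sets, limma-voom on recovered fragments, separate fits and leaving out each library, with the tested genes kept. Labels give separate animals but no batch, litter or pairing.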

Additional observations from a re-analysis of the deposited data

Results flagged for a closer look

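A library was flagged where it stood apart from the other 3 of its group by more than Dixon's 95% critical value. Of 108 groups tested, 14 were flagged, and chance flags about 1 in 20. Among the 10 genes these were Apln in LPS replicate 1 (3.83 FPKM, others 1.503 to 1.62), Flt1 in Control replicate 3 (27.9 FPKM, others 14.3 to 16.4) and Tie1 in LPS+XJDHT replicate 3 (30.1 FPKM, others 24.0 to 24.9). The Angpt2 to Angpt1 ratio of LPS+XJDHT replicate 1 was 368 (others 3.45 to 6.31).

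Among transcripts, Tie1-203 was high in LPS replicate 3 (10.6 FPKM, others 0.308 to 0.803) and in LPS+XJDHT replicate 4 (13.5 FPKM, others 0.240 to 1.11). Vegfa-201 was low in LPS replicate 4 (6.98 FPKM, others 9.67 to 10.1) and high in LPS+XJDHT replicate 2 (15.8 FPKM, others 7.96 to 8.70). Vegfa-202 was high in LPS replicate 3 (6.05 FPKM, others 2.31 to 2.76). Flt1-203 was high in LPS replicate 1 (14.96 FPKM, others 8.76 to 9.63), and the short Flt1 share was low in LPS replicate 3 (72.6%, others 87.3 to 90.005%).

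Among related genes, Nrp1 was low in LPS replicate 2 (0.935 FPKM, others 2.51 to 2.82), Rac1 was low in Control replicate 1 (13.0 FPKM, others 36.0 to 38.5) and Hhex was low in LPS+XJDHT replicate 2 (1.55 FPKM, others 3.05 to 3.25).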

How the results depend on the processing

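Angpt2, Vegfa, Apln and Aplnr kept direction and call against Control in every setting that tested them, with either treated group. The filter of 5 FPKM left out Angpt1, Angpt2 and Apln. Median-ratio scaling called Flt1 in both comparisons with Control (log2 differences -0.67 and -0.55) and evened the split of all calls in LPS against Control, from 3064 higher and 1386 lower to 2145 and 2113 (LPS+XJDHT against Control: from 3276 and 1234 to 1966 and 2046). No called value changed sign. limma-voom on recovered fragments called 4308, 14 and 4372 genes, against 4450, 13 and 4510. In LPS+XJDHT against LPS, the number of genes called was 43 without a filter and 1 with the filter of 5 FPKM, and 13 to 19 with each library left out. The number of transcripts called was 11 with pseudocount 0.1, against 18, and 17 to 26 with a library left out. Leaving out Control replicate 4 gave a call for Flt1-202 in LPS (adjusted p = 0.041), and leaving out LPS replicate 1 one for Flt1-203 (0.048). The short Flt1 share difference ran from 6.88 to 16.5 points over LPS against Control, and from -1.22 (without LPS replicate 3) to 4.57 points over LPS+XJDHT against LPS. The cause of these changes was not tested. With 4 hearts a group, and 3 to 31 fragments for Angpt1 in 3 hearts, small changes were not detectable. No paired analysis was possible because the labels give no replicate number, litter, batch or day that ties hearts of different groups; the replicate numbers used here only name hearts in deposition order.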
